A study of Rattus norvegicus with 2 samples.

Results

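The vascular endothelial growth factor (VEGF) ligands and their receptors were followed in cultured rat cells from the aorta and from the endocardium, the inner lining of the heart. The labels call both endothelial cells. The genes were the ligands Vegfa, Vegfb and Vegfc, the receptors Flt1, Kdr and Flt4, and the co-receptors Nrp1 and Nrp2. Every probe set, apart from array controls, was taken whose platform annotation gave exactly 1 gene symbol, equal to 1 of these 8. This gave 6 genes of the 4736 on the array, with 9 of the 7006 probe sets that had exactly 1 symbol: 4 for Vegfa and 1 each for Vegfb, Flt1, Kdr, Nrp1 and Nrp2. No probe set carried the symbol Vegfc or Flt4 alone, so these genes were not analysed here.

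The labels describe aortic and endocardial cells taken from the same 2 rats, pooled by origin and grown for 2 passages in culture conditions kept as alike as possible. Neither origin received a treatment that the labels name, and strain, age and genotype are not given in them. Each pool gave total RNA for 1 array of the type Affymetrix rat genome U34A, so the 2 groups held 1 array each. Origin, pool, culture and array cannot be told apart in this design, and with no replicates no difference could be tested. The values are intensities on a linear scale, brought to a shared trimmed mean, and each ratio is the endocardial value over the aortic one.

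As background, VEGF ligands are secreted proteins that drive endothelial growth, survival and permeability. Kdr (VEGFR2) is the tyrosine kinase that passes on most of the VEGF-A signal in blood vessel endothelium, Flt1 (VEGFR1) binds VEGF-A tightly but signals weakly, and Flt4 (VEGFR3) serves mainly lymphatic endothelium and binds VEGF-C. The neuropilins Nrp1 and Nrp2 have no kinase of their own, act beside the VEGF receptors, and are also receptors of class 3 semaphorins. Transcription of Vegfa is a classical target of the hypoxia-inducible factors.

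Of the ligands followed, Vegfa was the one with signal, and it was lower on the endocardial array in each of the 3 probe sets that gave a ratio. Nrp1, the co-receptor, was higher on the endocardial array. Vegfb, Kdr and Nrp2 stayed under the floor on both arrays, and Flt1 did not exceed the highest background control on either. The floor, below which values were not read, was the median of all scaled intensities (635.4). The highest of 38 background controls, which are probe sets of the opposite strand or for bacterial, yeast and mouse sequences, was 1742.

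The proximal promoters of Vegfa and Nrp1 are shown because these were the genes with probe sets past 2-fold. Each is the stretch of 250 bases before the annotated start at the outer edge of the gene (RefSeq, GRCr8), read 5′ to 3′ on the gene's own strand, the plus strand for both. Vegfa lies at chr9:22452604-22452853 and Nrp1 at chr19:73256307-73256556. Capitals mark the GC box GGGCGG or its reverse complement CCGCCC, a binding site of Sp1-type factors, and the hypoxia response core, ACGTG or GCGTG or their reverse complements CACGT and CACGC.
Vegfa: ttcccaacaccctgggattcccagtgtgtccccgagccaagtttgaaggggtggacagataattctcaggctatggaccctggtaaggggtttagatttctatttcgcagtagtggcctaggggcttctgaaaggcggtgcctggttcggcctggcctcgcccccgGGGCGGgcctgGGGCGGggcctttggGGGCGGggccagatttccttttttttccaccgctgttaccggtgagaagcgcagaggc
Nrp1: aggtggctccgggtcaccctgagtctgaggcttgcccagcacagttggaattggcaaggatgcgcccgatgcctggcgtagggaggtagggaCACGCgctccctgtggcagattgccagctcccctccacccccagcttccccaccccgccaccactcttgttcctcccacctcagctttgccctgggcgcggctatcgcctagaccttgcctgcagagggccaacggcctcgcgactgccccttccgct
The Vegfa window held 3 GC boxes and 0 hypoxia response cores, and that of a further annotated start inside Vegfa (chr9:22460028-22460277, not shown) held 0 of either. The Nrp1 window held 0 GC boxes and 1 core, read on the opposite strand. Among 33469 annotated rat starts with a window of the same length, 30.5% held a GC box and 36.7% held a core, so both kinds of match are common. These matches are letters in a window and not measured binding sites, and regulatory sequence farther from the start was not searched.

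Among the ligands, Vegfa had 4 probe sets. L20913_s_at read 6737 in the aortic and 3007 in the endocardial pool, a log2 ratio of -1.16, or 2.24-fold lower on the endocardial array. The probe set rc_AA850734_at stood at 9274 and 4860, a log2 ratio of -0.93, or 1.91-fold lower. Both exceeded the highest background control in each pool, so these ratios are measured on each side. M32167_g_at stood at 3578 in the aortic and 1436 in the endocardial pool, where it was under that control. Its log2 ratio was -1.32, and against the control it was at least 2.05-fold lower on the endocardial array.

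The 3 ratios of Vegfa spanned 0.38 on the log2 scale, with an SD of 0.19 among them. Probe sets of the same gene had an SD of 0.39 over the array, from 625 genes with 1432 probe sets that exceeded the floor in both pools. The 3 probe sets read the same 2 RNA pools, and M32167_g_at shares the record it is named for with the remaining probe set, so they are not replicates. That remaining one, M32167_at, stood at 28.7 in the aortic and -344 in the endocardial pool, under the floor on both, and gave no ratio. The Vegfa probe sets thus disagreed on whether the transcript gave signal, and the 3 that did give signal were all lower on the endocardial array.

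The single probe set of Vegfb, a ligand of Flt1, stood at 381.7 in the aortic and 376.3 in the endocardial pool. Both values were under the floor, so no level and no ratio can be read for Vegfb.

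**Figure D1:**
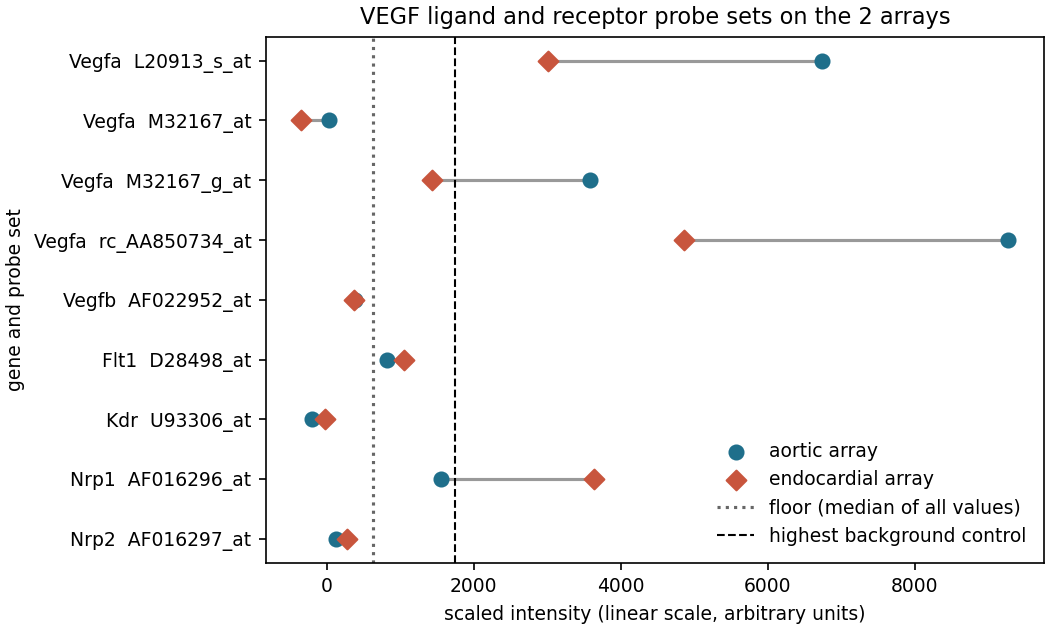
Scaled intensity (linear axis, arbitrary units) of each of the 9 probe sets on the aortic array (circles) and the endocardial array (diamonds), 1 array per origin; the dotted line is the floor (635.4) and the dashed line the highest background control (1742). The 3 bright Vegfa probe sets lie farther right on the aortic array, Nrp1 farther right on the endocardial array, and the other 5 probe sets lie under the control on both.

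Of the kinase receptors, Flt1 alone was above the floor. Its probe set D28498_at stood at 827.4 in the aortic and 1054 in the endocardial pool, a log2 ratio of 0.35. Neither value reached the highest background control, so the ratio shows neither equal nor different expression. Kdr, read by U93306_at, stood at -194.8 in the aortic and -29.3 in the endocardial pool, and was not above background on either. Values below 0 arise in this kind of summary, and 25.8% of aortic and 24.3% of endocardial values over the whole array were at or below 0. These values put no limit on how much Kdr protein or transcript the cells held, since the response of this probe set to its transcript is not known.

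Of the co-receptors, Nrp1 read 1550 in the aortic and 3632 in the endocardial pool with its probe set AF016296_at. Its log2 ratio was 1.23. The aortic value was under the highest background control, and against that control the endocardial value of Nrp1 was at least 2.08-fold higher. Nrp1 rested on 1 probe set. Nrp2, read by AF016297_at, stood at 125 and 278 and was under the floor on both arrays.

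Over the 9 probe sets, 3 exceeded the highest background control on the aortic array and 3 on the endocardial array, where 32.6% and 32.7% of the 7006 probe sets with 1 symbol did. At least 1 array exceeded it for 4 of the 9, against 36.3% over the array, and both arrays did for 2, against 29.0%. The share of VEGF probe sets with signal was thus near that of the array as a whole. Above the floor on at least 1 array were 5 of the 9, against 56.7%. Of these 5, 2 were at least 2-fold lower on the endocardial array, where 4.70% of 3975 such probe sets were, and 1 was at least 2-fold higher, where 6.82% were. The median log2 ratio of the 5 was -0.93, and that of the 3975 was -0.02. Of the 5, 3 were Vegfa probe sets, so this median was the value of 1 of them, rc_AA850734_at. Flt1 and Nrp1 went the other way, with log2 ratios of 0.35 and 1.23, so the median does not describe the VEGF genes as a group. Both probe sets that were at least 2-fold lower belong to Vegfa, so the count of 2 is a count of 1 gene. With both arrays held at no less than the highest background control, 2 of the 4 VEGF probe sets above it were at least 2-fold lower, where 3.18% of 2545 were, and 1 was at least 2-fold higher, where 4.79% were.

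**Figure D2:**
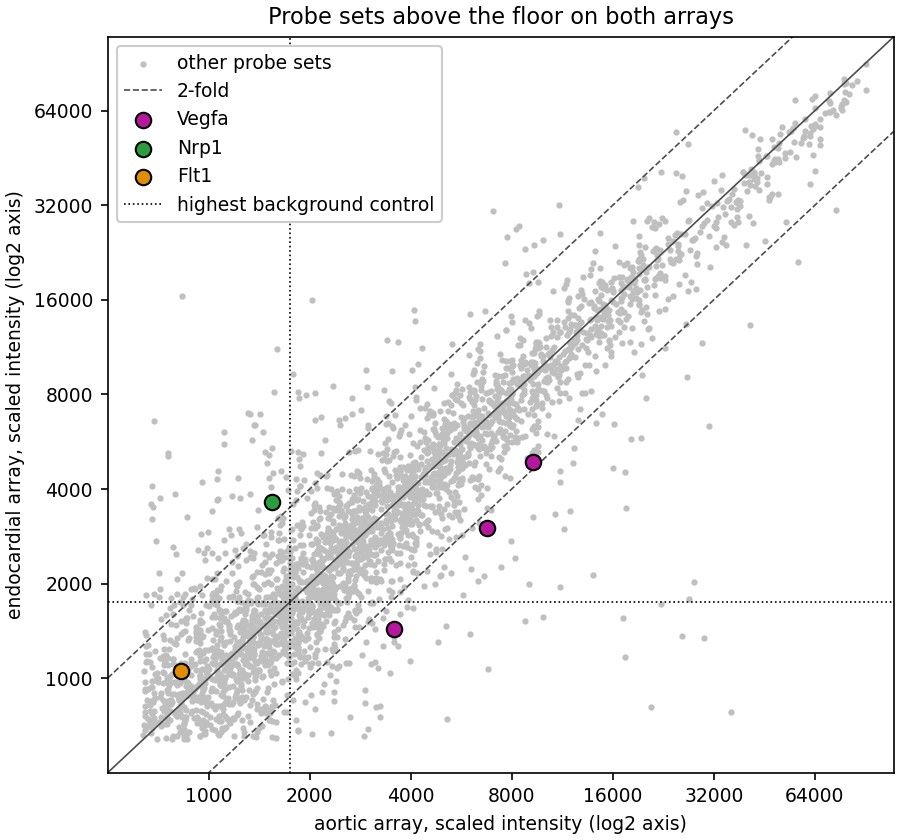
Each point is a probe set with 1 gene symbol that exceeded the floor in both pools, with its scaled intensity on the aortic (x) and endocardial (y) array, both on log2 axes; dashed lines mark 2-fold, dotted lines the highest background control (1742). Of the Vegfa points, 2 lie below the lower 2-fold line and 1 lies just inside it, Nrp1 lies above the upper line and left of the control, and Flt1 lies under the control on both axes.

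In rank, 142 of the 3975 probe sets (3.57%) had a log2 ratio as low as or lower than that of L20913_s_at, 105 (2.64%) than that of M32167_g_at and 224 (5.64%) than that of rc_AA850734_at. A log2 ratio as high as or higher than that of Nrp1 was found for 182 probe sets (4.58%). The ranks of M32167_g_at and Nrp1 rest on a dimmer value under the highest background control, so their true place is not resolved. Of the 3975 probe sets ranked, 2545 exceeded that control on at least 1 array, so the ranks of L20913_s_at and rc_AA850734_at are approximate as well. Of 191 genes with at least 3 probe sets above the floor, 6 besides Vegfa had all of them lower on the endocardial array by at least the 1.91-fold of the least Vegfa probe set. They were Dcn, Gadd45a, Jak2, Lox, Ndufa4l2 and Scd2, and this comparison was chosen after the values had been seen.

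The probe sets closest to those of VEGF genes were found by distance in the plane of the 2 log2 intensities, over these 2 arrays alone, with the nearest 3 per probe set above the control. Nearest to L20913_s_at of Vegfa were Ifrd1 (log2 distance 0.09, with 6387 in the aortic and 3124 in the endocardial pool), Ripk3 (0.15) and Enpp1 (0.20). Nearest to M32167_g_at were Mx2 (0.08), Qpct (0.14) and Flnc (0.16), and nearest to rc_AA850734_at were Fntb (0.08), Map2k1 (0.10) and Metrnl (0.12). Nearest to Nrp1 were Ndrg4 (0.16, with 1539 and 4055), Nfia (0.16) and Il33 (0.17). With 2 arrays, closeness says only that both intensities were alike.

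Other genes of the pathway were read from lists, each gene by the median log2 ratio of its probe sets above the floor, where, of 2935 genes in all, 5.93% were higher in the endocardial pool by 2-fold or more, 4.16% were lower by as much, and the median was -0.02. Of 98 symbols listed, 59 had a probe set of their own and 48 of these were above the floor, where 2935 of all 4736 genes were. Of the 48, 4 were at least 2-fold higher, 5 were lower and 39 lay between, with a median of 0.02.

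Of the other ligands and the angiopoietin-Tie axis, 2 of 7 listed symbols (Vegfd also stood there under its old symbol Figf) were measured and 0 passed 2-fold. Vegfd, a ligand of Flt4 related to VEGF-C, stood at 4625 in the aortic and 5489 in the endocardial pool, a log2 ratio of 0.25. It exceeded the highest background control in both pools, as did 2 probe sets of Vegfa. Pgf, the placental growth factor that binds Flt1, stood at 857 and 674.3, under that control on both. Angpt2, the angiopoietin of activated endothelium, was under the floor with 131.1 and 355.7.

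Among genes that control Vegfa transcription in hypoxia, 4 of 9 were measured, with a median log2 ratio of -0.31, and 1 passed 2-fold. Hif1a, the oxygen-regulated subunit of hypoxia-inducible factor 1, stood at 6347 in the aortic and 2032 in the endocardial pool. Its log2 ratio was -1.64, 3.12-fold lower on the endocardial array, read by 1 probe set, and each value exceeded the highest background control. Arnt, its constant partner, had a log2 ratio of -0.65 with an endocardial value (1189) under that control. Vhl, which targets the oxygen-regulated subunits for destruction, had a log2 ratio of 0.19, the median of 0.06 and 0.32 for its 2 probe sets. The first exceeded the highest background control in both pools, and the second, at 556.7 and 790.9, did so in neither. The prolyl hydroxylase Egln3 had a log2 ratio of 0.04, the median of -0.29 and 0.37, with every value under that control. Hif1a activity is set largely at the protein level, which was not measured here. Of the semaphorins and plexins that share the neuropilins, 1 of 10 had a probe set of its own, and that gene, the Nrp1 ligand Sema3a, was below 0 on both arrays (-114.4 and -147.6).

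Among signal transducers downstream of the receptors, 23 of 47 were measured. Of these, 3 were higher in the endocardial pool by 2-fold or more and 0 were lower, with a median log2 ratio of 0.003. Ptk2, the focal adhesion kinase, stood at 996 in the aortic and 2918 in the endocardial pool (log2 ratio 1.55). Mapkapk2, the kinase between p38 and the heat shock protein Hspb1, stood at -16.1 and 2628, at least 4.14-fold higher against the floor and at least 1.51-fold against the highest background control. Prkcd, a protein kinase C, had a log2 ratio of 1.08, the median of 0.64 and 1.52 for its 2 probe sets. The aortic values of all 3 genes were under that control, and with the floor set there none of the 3 passed 2-fold. Plcg1, the phospholipase that binds activated Kdr, stood at 2794 and 5307, both above the control, 1.90-fold higher on the endocardial array. Map2k1, the MAP kinase kinase MEK1, had a log2 ratio of -0.74 over 2 probe sets. Src, Prkca and both probe sets of Pik3r1 were under the floor on both arrays.

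Of 25 genes known to be induced by VEGF receptor signalling, 19 were measured, 1 was at least 2-fold higher and 4 were lower, with a median log2 ratio of 0.04. Plat, the tissue plasminogen activator, stood at 3394 in the aortic and 11882 in the endocardial pool (log2 ratio 1.81). F3, tissue factor, stood at 30994 and 6354 (-2.29), and Vcam1, the leukocyte adhesion receptor, at 22620 and 1788 as medians of 2 probe sets (-3.63). In the endocardial pool, M84488_at of Vcam1 (1558) was under the highest background control and X63722cds_s_at (2018) was above it. Plaur, the urokinase receptor, stood at 1968 and 187.8, at least 1.13-fold lower against the highest background control. Ptgs2, the inducible cyclooxygenase, had median intensities of 1688 and 678.6, both under that control. Of its 2 probe sets, S67722_s_at exceeded the control in the aortic pool, with 2120 there and 618.8 in the endocardial pool, and L25925_s_at did not, with 1255 and 738.4. The early response gene Egr1 had a log2 ratio of 0.04, with 4 probe sets from -0.92 to 1.48. Nos3, the endothelial nitric oxide synthase that VEGF activates, had one of -0.06 with 1 of its 6 probe sets above that control, on the aortic array (1832). With the floor at that control, 1 gene over all pathway lists was at least 2-fold higher, Plat, and 3 were lower, Hif1a, F3 and Vcam1.

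**Figure D3:**
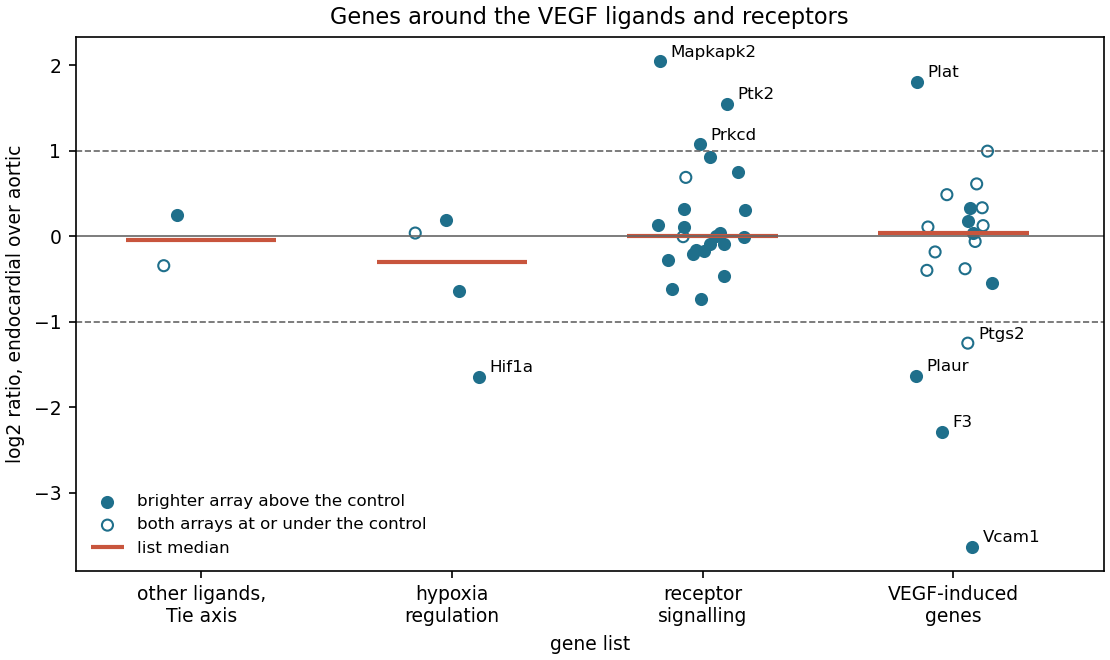
Log2 ratio, endocardial over aortic, of each measured gene of the pathway lists (1 point per gene, median over its probe sets above the floor); filled points have a median intensity above the highest background control on at least 1 array, open points on neither, red bars are list medians and dashed lines mark 2-fold. Genes past 2-fold are named: Hif1a, F3, Vcam1, Plaur and Ptgs2 lie below, and Mapkapk2, Ptk2, Prkcd and Plat above; values at the floor are drawn at the floor, so the points of Mapkapk2, Plaur and Ptgs2 are lower bounds in size.

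Markers of the labelled cell type and of others were read beside these values. Of all 4736 genes on the array, 2935 were measured. Of these 2935, 5.93% were higher in the endocardial pool by 2-fold or more and 4.16% were lower by as much. Of 15 endothelial markers, 7 had a probe set of their own and 3 were measured (Nos3, Thbd and Ace), while Vwf, Pecam1, Icam2 and Sele were under the floor on both arrays, like Kdr. Of these 3, 0 were higher by 2-fold. Ace, which makes angiotensin II, was the 1 lower by 2-fold, with 2297 in the aortic and 1028 in the endocardial pool. Its endocardial value was under the highest background control, and against that control Ace was at least 1.32-fold lower. Thbd alone of the 3 exceeded that control in both pools, with 1 of its 2 probe sets. These markers thus do not by themselves bear out the endothelial label. The summed intensity of the measured endothelial markers was 7614 in the aortic and 5258 in the endocardial pool. Of 8 macrophage and leukocyte markers, 6 were measured, of which 4 were higher in the endocardial pool by 2-fold or more and 0 were lower, and their summed intensity was 5626 in the aortic and 46077 in the endocardial pool. Most of the endocardial sum was Lyz2, which stood at 287.8 and 33620, and most of the aortic sum was Cd14, which stood at 3246 and 4070.4, while Csf1r was under the floor on both and Ptprc did not exceed the highest background control on either. The 4 higher genes were Lyz2, Ctss, Cd53 and Cd74, and their aortic values, as medians over probe sets, were under the floor. Against the control they were at least 19.3-, 1.94-, 1.15- and 1.09-fold higher, so only Lyz2 passed 2-fold there. Of 7 smooth muscle markers, 5 were measured, 1 was higher and 1 lower, with sums of 89815 and 138802. The higher one was Myl9 (log2 ratio 1.54), and Cnn1, Acta2 and Tagln had log2 ratios of 0.97, 0.71 and 0.23. The lower one, Myh11, rested on 1 of its 3 probe sets, at 2533 in the aortic and 614.2 in the endocardial pool. Against the highest background control it was at least 1.45-fold lower. Of 8 fibroblast markers, all were measured and 1 was lower, Dcn, with sums of 276343 and 236521. Of 5 cardiomyocyte markers, 4 were measured and 1 was lower, with sums of 5485 and 4809. The lower one, Myh6, rested on 1 of its 3 probe sets, at 1589 in the aortic and 569.4 in the endocardial pool, both under the highest background control. The part of these cell types in the values of Vegfa and Nrp1 was not tested. In pooled RNA, fewer cells of a type cannot be told apart from less RNA per cell.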

How the data were processed

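Per the labels, total RNA of cultured aortic and endocardial endothelial cells was hybridised to 1 Affymetrix rat genome U34A array per origin. The deposited values are linear intensities, 1 for each probe set on each array. The software that made them is not stated there. The 59 control probe sets were set aside and the 8740 others scaled to a shared trimmed mean (2% trimmed at each end, factors 1.001 and 0.999). The floor was the median over all scaled values. Values below it were raised to it, and a probe set not above it on either array gave no ratio. Genes were named by the platform annotation through gene identifiers in a RefSeq table (GRCr8): 7006 probe sets had 1 symbol, 308 several and 1426 none. With 1 array per group there was no test, and 2-fold was the fixed threshold. All 8 genes were named with every probe set; of each pathway list, those past 2-fold with a probe set above the highest background control, otherwise the 2 with the brightest probe sets, and some others as examples, chosen after their values were seen. The members, lists and thresholds were chosen with earlier results of these data known. Precision is limited by the number of arrays. Alternatives covered scaling, floor, control and probe set choice. The counting step was tested on simulated data. Python 3.11.15, pandas 2.3.3, scipy 1.17.1 and statsmodels 0.14.6 were used.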

Additional observations from a re-analysis of the deposited data

How the results depend on the processing

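Scaling changed little: with deposited values, quantile normalization, centring on the median ratio or a loess on intensity (span 0.4), the VEGF probe sets kept their direction, with 2 at least 2-fold lower and 1 higher each time. Over all alternatives for scaling and floor, the log2 ratio of L20913_s_at ranged from -1.17 to -1.12 and that of rc_AA850734_at from -0.93 to -0.89. The level of the floor mattered more. With the floor at the 75th percentile (2576), M32167_g_at came to -0.47 and Nrp1 to 0.50, so 1 VEGF probe set was lower and 0 higher; pathway genes past 2-fold numbered 1 higher and 3 lower, and probe sets over the array 78 and 62. Where the highest background control served as floor, pathway genes numbered 1 higher and 3 lower, and probe sets 122 and 81 of 2545 (4.79% and 3.18%). With no floor, 2 VEGF probe sets were higher, the second being Nrp2, with 10 pathway genes higher, and 504 probe sets higher and 568 lower. With the floor at 317.7, 0.5 of the median, pathway genes higher numbered 8, and probe sets 436 and 330. The number of genes and probe sets kept depends on the floor. Apart from the 2 shares given, these are plain counts, and those of genes cannot be set against those of probe sets. Flt1 gave no value with the floor at the control or at the 75th percentile. Of 116 values under alternatives, 97 moved by less than the set margin (0.39 in log2 ratio, 1.5-fold in a count) and 19 moved by more. Among the log2 ratios of at least 2-fold, 0 changed sign. A change of floor cannot turn the sign of a ratio and leaves ratios of bright probe sets as they were. Ratios lost under a higher floor are not among the 116. The tally is therefore no measure of how robust the ratios are. No paired analysis was possible because each group had 1 array. Leaving out an array was not possible for the same reason.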

Other observations

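Some genes outside the VEGF lists had at least 3 probe sets above the floor that all differed by the 1.91-fold of Vegfa or more, a choice made after the values had been seen. Cyp1b1, a cytochrome P450 that metabolises oestrogens and polycyclic aromatic compounds, was higher on the endocardial array in all 4 of its probe sets. They stood at 2964, 7046, 8392 and 11089 on the aortic array and at 8468, 30604, 27557 and 32099 on the endocardial array. Its folds ran from 2.86 to 4.34, with every value above the highest background control. Nfia, a transcription factor of the nuclear factor I family, was higher in 3 probe sets, at 1404, 1859 and 598.8 on the aortic array and 3443, 4979 and 1891 on the endocardial array. Since 2 of its 3 aortic values were under that control, those probe sets were at least 1.98-fold and at least 1.09-fold higher against it, and the other was 2.68-fold higher. Jak2, the cytoplasmic kinase of cytokine receptors, was lower on the endocardial array in 3 probe sets, with log2 ratios of -1.27, -1.21 and -1.21, and 2 of its 3 endocardial values were under the control. Scd2, a stearoyl-CoA desaturase of fatty acid synthesis, was lower in 5 probe sets, with log2 ratios from -1.94 to -0.98. Its probe set S75730_at had an endocardial value (1463) under the control and was at least 2.92-fold lower against it. Each of these genes was read on 1 array per origin, and none of the differences was tested.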
